A study of Homo sapiens with 16 samples.

Results

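The HOX cluster genes are the protein-coding homeobox genes named HOXA, HOXB, HOXC or HOXD followed by a number. All rows of the count table with such a symbol were taken, and the antisense and HOTAIR-type transcripts of the clusters were left out. This gave 39 genes among the 26485 of the table, namely 11 HOXA, 10 HOXB, 9 HOXC and 9 HOXD genes. The rule uses gene symbols and no measured value.

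HOX genes encode transcription factors that set the position of a tissue along the body axis. They lie in 4 clusters, and the order of the genes along a cluster follows the order in which they are switched on from the head end to the tail end of the embryo. Low paralogue numbers stand for the head end and high numbers for the tail end, limbs, genital tract and prostate. Cells in culture often keep much of the HOX pattern of the tissue they came from.

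RNA-seq read counts were available for 16 libraries, 8 from PC3 and 8 from HeyA8, which are human cancer cell lines from prostate and ovary that the labels call wild type. In each line cells were mock-treated or transfected with the non-targeting control siNT1, with siGGGGGC, whose guide carries the seed GGGGGC and pairs with GCCCCC in an mRNA, or with siCAG, and RNA was taken at 24 h and 48 h. Each siRNA and time gave 1 library per line, so the 24 h and 48 h libraries served as the 2 replicates of a condition. The treatment labels name siGGGGGC, and the titles of the same libraries name siMxy_3AB. The treatment labels were followed, and whether both names stand for 1 duplex was not tested, so every siGGGGGC value rests on the treatment label. The labels give 1 nM siRNA, lower than the concentration in the methods of the study. Library totals ran from 27937092 to 29971612 counts in PC3 and from 29128446 to 31790209 in HeyA8. The methods describe separate transfected wells for the 24 h and the 48 h harvest at their concentration, and the labels do not say whether wells were separate cultures or pooled here, so the p-values measure the spread between these libraries.

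Levels are given as CPM, the usual rate of counts relative to the library total, with totals scaled by the TMM method over all 16 libraries. Where several libraries are listed, the order is mock 24 h, mock 48 h, siNT1 24 h and siNT1 48 h unless stated otherwise. In bulk RNA, fewer cells with a transcript and less transcript per cell cannot be told apart.

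The lines were checked against marker lists. PC3 had 2 of 8 prostate luminal genes at 10 CPM or more on average in the control libraries, led by TMPRSS2 at 27.8 CPM, while 5 were under 1 CPM. KLK3, the gene of prostate-specific antigen, had 0 counts in these libraries. HeyA8 had 3 of 6 ovarian and Müllerian genes at 10 CPM or more, led by PAX8 at 170.0 CPM (PC3, 4.21 CPM). Of the fibroblast list 1 gene of 6 in PC3 and 0 in HeyA8 reached 10 CPM, and CD68 alone did so among the 5 immune genes in both lines.

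The clusters lie on chromosomes 7 (HOXA), 17 (HOXB), 12 (HOXC) and 2 (HOXD). In GENCODE v44 on hg38, GCCCCC, searched on the mRNA strand alone and with overlapping matches counted, stood in the longest annotated 3′ UTR of 17 of the 39 members, or 43.6%, against 30.2% of 19226 protein-coding genes. The matches were spread unevenly over the clusters, with 1 of 11 HOXA, 6 of 10 HOXB, 7 of 9 HOXC and 3 of 9 HOXD genes. The sites below are from the members with a match that had a control mean of 3.83 CPM or more in at least 1 line, the levels at which a fall would be easiest to see, together with HOXA6, the HOXA gene with a match. Each is given 5′ to 3′ on the mRNA strand with 1 GCCCCC match in capitals.
HOXA6, chr7:27145594-27145623, minus strand: tccttcggctttGCCCCCttgccctcgcct
HOXB3, chr17:48549756-48549785, minus strand: ggtacacttctaGCCCCCggtttttctgct
HOXB4, chr17:48576500-48576529, minus strand: ggccacggggagGCCCCCccagaagcaaga
HOXB6, chr17:48596246-48596275, minus strand: gctctcctggacGCCCCCgcccgcacagct
HOXB9, chr17:48622194-48622223, minus strand: ggagcaaacctaGCCCCCaagccggtgggc
HOXC6, chr12:54030293-54030322, plus strand: cactccttcgacGCCCCCacccccgccccc
HOXC8, chr12:54011646-54011675, plus strand: acacttgtccctGCCCCCacccttctgagt
HOXD4, chr2:176153093-176153122, plus strand: tgcccgagggcaGCCCCCtccctagagcgg
HOXD9, chr2:176124669-176124698, plus strand: ccagttgcgaaaGCCCCCtttcctcaggga
HOXB4, HOXC6 and HOXC8 held 2 matches each, of which the downstream site is shown for HOXB4 and the upstream site for the other two. The downstream match of HOXC6 ends its window in lower case. A match is a description of the letters and not of a site in use. CTG, the complement of CAG, was repeated at most 3 times in a row in the coding sequences and 3′ UTRs of the members, in HOXD3.

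The control libraries of the lines, mock and siNT1, had different HOX patterns. PC3 was marked by HOXB13 and the tail-end HOXA genes, and HeyA8 by the HOXB genes from HOXB2 to HOXB9 and by HOXD genes. In PC3 4 members had a control mean of 10 CPM or more (HOXA10, HOXA11, HOXA13 and HOXB13). In HeyA8 9 members did so (HOXA10, HOXB2, HOXB3, HOXB4, HOXB5, HOXB6, HOXB7, HOXB9 and HOXD4). The paralogues 9 to 13 made up 89.5% of the summed HOX level in PC3 and 13.6% in HeyA8, where paralogues 1 to 3 and 4 to 8 held 42.8% and 43.6%. HOXB13 alone averaged 297 CPM of the mean HOX sum of 432 CPM in PC3, so the PC3 share rests mostly on this gene. HOXA10 was the only member at 10 CPM or more in both lines.

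**Figure D1:**
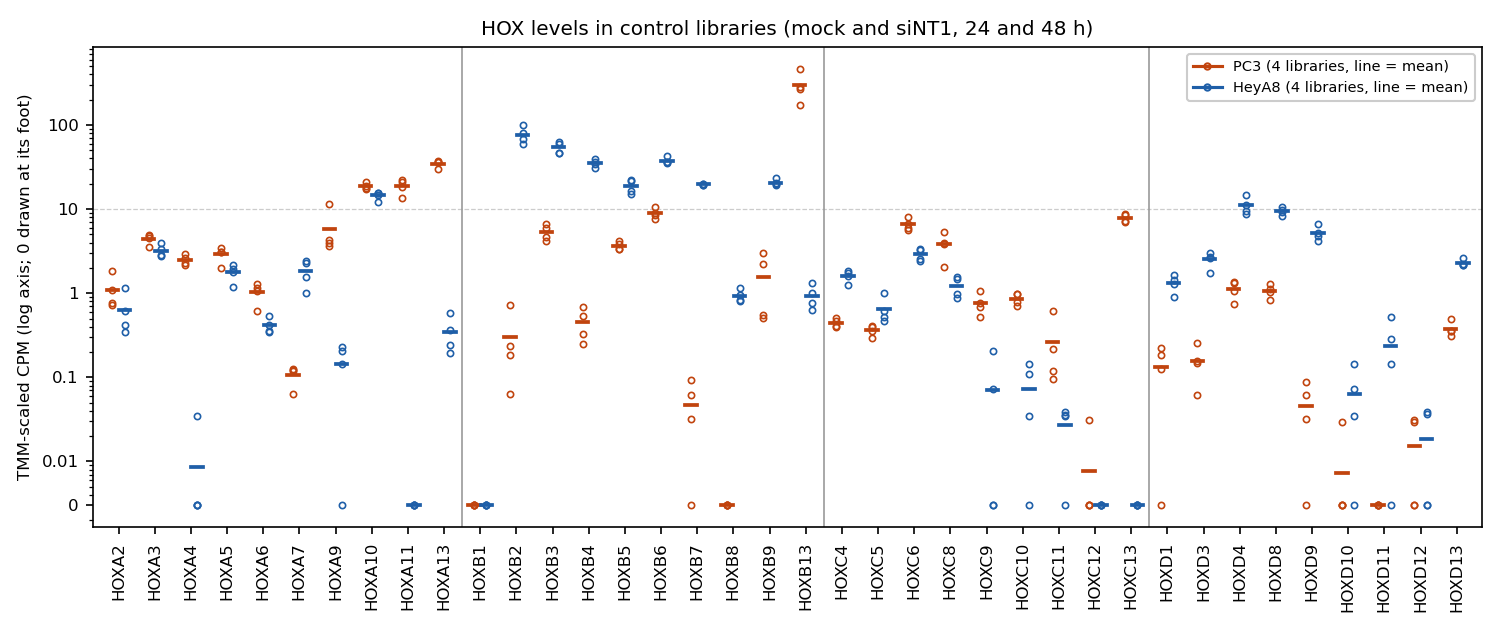
TMM-scaled CPM on a log axis of HOX genes, ordered by cluster and paralogue number, in the 4 control libraries of PC3 and of HeyA8. Circles are libraries, short lines are means, values of 0 are drawn at the foot of the axis and the dashed line marks 10 CPM; HOXB13 reached 297 CPM on average in PC3 and HOXB2 76.9 CPM in HeyA8.

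Of the 33 members tested between the lines, 15 were higher in PC3 and 18 lower. Over all 14545 genes tested, 42.5% were higher and 37.5% lower, so a call between these lines was the rule and the number of called members says little about HOX genes. The sizes were larger: the median absolute log2 fold change was 3.33 for the members and 0.82 for all genes tested. The members at 0 counts in 1 line lay above the members' median at their bounds too. Members at few or 0 counts in 1 line passed the filter on low counts only through the other line. The sizes are therefore a description, and the filter's part in them was not tested. HOXB1, HOXC11, HOXC12, HOXD10, HOXD11 and HOXD12 were too low to be tested, and HOXB1 had 0 counts in all 16 libraries.

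HOXB13, a tail-end factor of prostate epithelium, stood at 285, 465, 171 and 265 CPM in the PC3 controls. In the HeyA8 controls it stood at 1.33, 1.01, 0.625 and 0.771 CPM. All PC3 libraries were far above all HeyA8 libraries, with a log2 difference of 8.28 (SE 0.16, edgeR adjusted p 1.94e-10). HOXB13 alone made up most of the HOXB sum in PC3, which was 317 ± 120.5 CPM (SD, n = 4) beside 265 ± 34.0 CPM in HeyA8. Per kilobase of the GENCODE transcript, HOXB13 was at 97.6 CPM per kb in PC3 and HOXA11 at 7.02. For HOXA10 and HOXA13 the transcript differs widely in length from the counted row, so no level per length is given for them.

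The other HOXB genes had the opposite direction. HOXB2, which helps to pattern the hindbrain, stood at 68.5, 58.7, 101 and 79.6 CPM in HeyA8. In PC3 it stood at 0.185, 0.236, 0.715 and 0.0640 CPM. The groups were far apart, with a log2 difference of −7.97 (SE 0.27, adjusted p 4.57e-09). HOXB3, its neighbour, stood at 47.1, 46.9, 60.1 and 63.2 CPM in HeyA8 and at 4.66, 4.19, 6.72 and 5.88 CPM in PC3. HOXB4, known for its part in the growth of blood stem cells, stood at 30.9, 34.7, 35.8 and 39.8 CPM in HeyA8 and at 0.247, 0.325, 0.684 and 0.544 CPM in PC3. Neither gene's groups overlapped, and the log2 differences were −3.33 (SE 0.10) and −6.28 (SE 0.18).

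HOXB5 and HOXB6, genes of the middle of the cluster, differed less. HOXB5 stood at 16.5, 15.2, 21.7 and 22.4 CPM in HeyA8 and at 3.37, 4.13, 3.89 and 3.36 CPM in PC3. HOXB6 stood at 35.4, 36.3, 42.9 and 36.6 CPM in HeyA8 and at 9.11, 8.56, 10.5 and 7.64 CPM in PC3. Their log2 differences were −2.33 (SE 0.15) and −2.06 (SE 0.11), again with no overlap. Next to them HOXB7 was close to constant in HeyA8, at 19.4, 19.9, 19.8 and 19.4 CPM, and had 6 counts in the 4 PC3 libraries together. Its log2 difference was −8.59, a size that is uncertain with so few counts in PC3. HOXB8 had 0 counts in the PC3 controls and 103 in those of HeyA8, which was at least 40.4-fold higher against a floor of 3 counts over the 4 libraries. HOXB9, a thoracic-level gene, stood at 19.1, 20.5, 19.9 and 23.4 CPM in HeyA8 and at 0.556, 0.502, 2.21 and 2.97 CPM in PC3, where the siNT1 libraries were the higher.

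Per kilobase, HOXB2 was the most abundant member in HeyA8 at 45.7 CPM per kb, followed by HOXB6 at 22.6, and no library of either overlapped with the member below it. HOXB4, HOXB3 and HOXB7, at 17.6, 16.5 and 14.4 CPM per kb, formed a group in which HOXB3 overlapped with both others. HOXB5, HOXD4 and HOXB9 came next at 10.2, 9.74 and 8.01 CPM per kb with overlapping ranges.

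In the HOXA cluster 9 of 11 members were higher in PC3 and 2 lower. HOXA9, HOXA11 and HOXA13 of the tail end and HOXA4 of the middle differed most, and HOXA10 little. HOXA13, needed for distal limbs and the lower genital tract, stood at 36.6, 36.9, 29.9 and 36.1 CPM in PC3 and at 0.576, 0.362, 0.243 and 0.193 CPM in HeyA8, a log2 difference of 6.66 (SE 0.20). HOXA11, which patterns the uterus and the forearm, stood at 21.2, 13.4, 18.2 and 22.2 CPM in PC3 and had 0 counts in all 8 HeyA8 libraries. It was at least 685-fold higher in PC3 against the floor of 3 counts over the 4 control libraries.

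HOXA10, a factor of the uterus and of blood cells, lay between HOXA9 and HOXA11 on the chromosome but differed far less. It stood at 20.9, 19.0, 17.4 and 18.1 CPM in PC3 and at 14.6, 15.7, 15.7 and 12.3 CPM in HeyA8, a log2 difference of 0.38 (SE 0.10, adjusted p 0.00532) with no overlap. HOXA9, a blood and leukaemia factor, was higher by 5.32 on the log2 scale, with 11.5 CPM in siNT1 at 24 h and 3.66 to 4.32 CPM in the other PC3 controls. HOXA4 had 324 counts in the PC3 controls and 1 in those of HeyA8, a ratio of 275 with a 95% exact counting interval of 49.1 to 10908. HOXA2 and HOXA3 of the head end and HOXA5 of the middle of the cluster differed by 0.83, 0.48 and 0.71, and their control ranges overlapped. HOXA7 was lower in PC3, with a log2 difference of −4.00 (SE 0.43).

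In the HOXC cluster the tested members had the same order by position and by difference. From HOXC4 through HOXC5, HOXC6, HOXC8, HOXC9 and HOXC10, the log2 differences were −1.83, −0.80, 1.19, 1.60, 3.34 and 3.54, and HOXC13 lay above them with a difference known only as a bound. HOXC9 and HOXC10 had 8 counts each in the HeyA8 controls, too few to order them. HOXC11, which was not tested, had 34 counts in PC3 and 3 in HeyA8, a ratio of 9.63 with a 95% exact counting interval of 3.03 to 49.0, and its place in the order is not known. Spearman's rho between paralogue number and log2 difference was 1 over the 7 tested members, beside 0.40 over 11 HOXA, 0.28 over 9 HOXB and 0.26 over 6 HOXD members. These are descriptions, since the points share the same libraries and HOXC4, HOXC5 and HOXC6 overlap on the same strand. HOXC13, which controls hair keratins, stood at 7.29, 8.71, 7.03 and 8.44 CPM in PC3 and had 0 counts in the 8 HeyA8 libraries, at least 289-fold lower there. HOXC6 and HOXC8, genes of the neck and upper trunk, averaged 6.59 and 3.83 CPM in PC3 and 2.90 and 1.22 CPM in HeyA8.

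All 6 HOXD members tested were lower in PC3. HOXD4 stood at 11.1, 8.87, 14.9 and 9.48 CPM in HeyA8 and at 1.05, 0.738, 1.31 and 1.38 CPM in PC3, a log2 difference of −3.29 (SE 0.17). HOXD8 and HOXD9 averaged 9.47 and 5.22 CPM in HeyA8 and 1.07 and 0.0456 CPM in PC3. HOXD13, the HOXD counterpart of HOXA13 and HOXB13, differed the other way from those 2 genes, with 2.29 CPM in HeyA8 and 0.378 CPM in PC3. The HOXD sum was 32.2 ± 4.84 CPM (SD, n = 4) in HeyA8 and 2.92 ± 0.459 CPM in PC3.

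Of the 33 calls, HOXA2, HOXA3, HOXA5 and HOXC5 were each lost when certain control libraries were left out (30 to 32 members called), and HOXA6 too when the mock libraries alone were compared.

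Genes that work with HOX proteins were called between the lines about as often as other genes, of which 42.5% were higher and 37.5% lower in PC3, so the counts below are descriptions. Of 7 TALE cofactors tested, which bind DNA together with HOX proteins, 2 were higher and 4 lower in PC3. PBX3 averaged 15.6 CPM in PC3 and 83.3 CPM in HeyA8. Of 26 Polycomb genes, which keep silent HOX genes repressed, 9 were higher and 13 lower, with a median log2 difference of −0.20. Of 13 tested MLL-type activators 4 were higher and 5 lower, with a median of 0.04. Of 8 tested retinoic acid and CDX genes, upstream regulators of HOX clusters, 3 were higher, among them CRABP1 and CRABP2, and 3 lower.

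Of 13 tested antisense and other noncoding transcripts of the clusters, 9 were higher in PC3 and 4 lower. HOTTIP, transcribed from the tail end of HOXA, averaged 8.57 CPM in PC3 and had 1 count in the HeyA8 controls. HAGLR, beside HOXD1, averaged 29.3 CPM in HeyA8 and 0.545 CPM in PC3. HOXB-AS3, which overlaps HOXB5 and HOXB6, was higher in PC3 by 1.61 (SE 0.20) on the log2 scale, the opposite direction to both genes. HOXA11-AS averaged 9.80 CPM in PC3 and had 0 counts in the HeyA8 controls. PRAC1, a prostate gene flanking HOXB13, averaged 17.6 CPM in PC3 and had 0 counts in the HeyA8 controls. Of the 39 members, 18 overlap another gene of the table, 12 of them on the opposite strand only, and the strand setting of the counting was not given in the sources used here, so reads of such pairs cannot be told apart.

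siGGGGGC was compared with siNT1 to see which genes changed when an siRNA with a G-rich seed was introduced. In PC3, 5 of 30 members tested rose and 1 fell, next to 3.67% of all 15136 genes tested that rose and 6.00% that fell. The rising genes were HOXA9, HOXA10, HOXA11, HOXA13 and HOXC13, all of the tail end, and the falling gene was HOXB13. The 4 HOXA genes lie next to each other in GENCODE v44, whose coordinates are given here and below, from chr7:27162438 to chr7:27200091. HOXA9 and HOXA10 overlap there on the same strand. The counted rows of both also overlap the joint transcript HOXA10-HOXA9 on that strand, and the part of shared reads was not tested. The median log2 fold change was 0.45 for the members and 0.0029 for all genes.

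**Figure D2:**
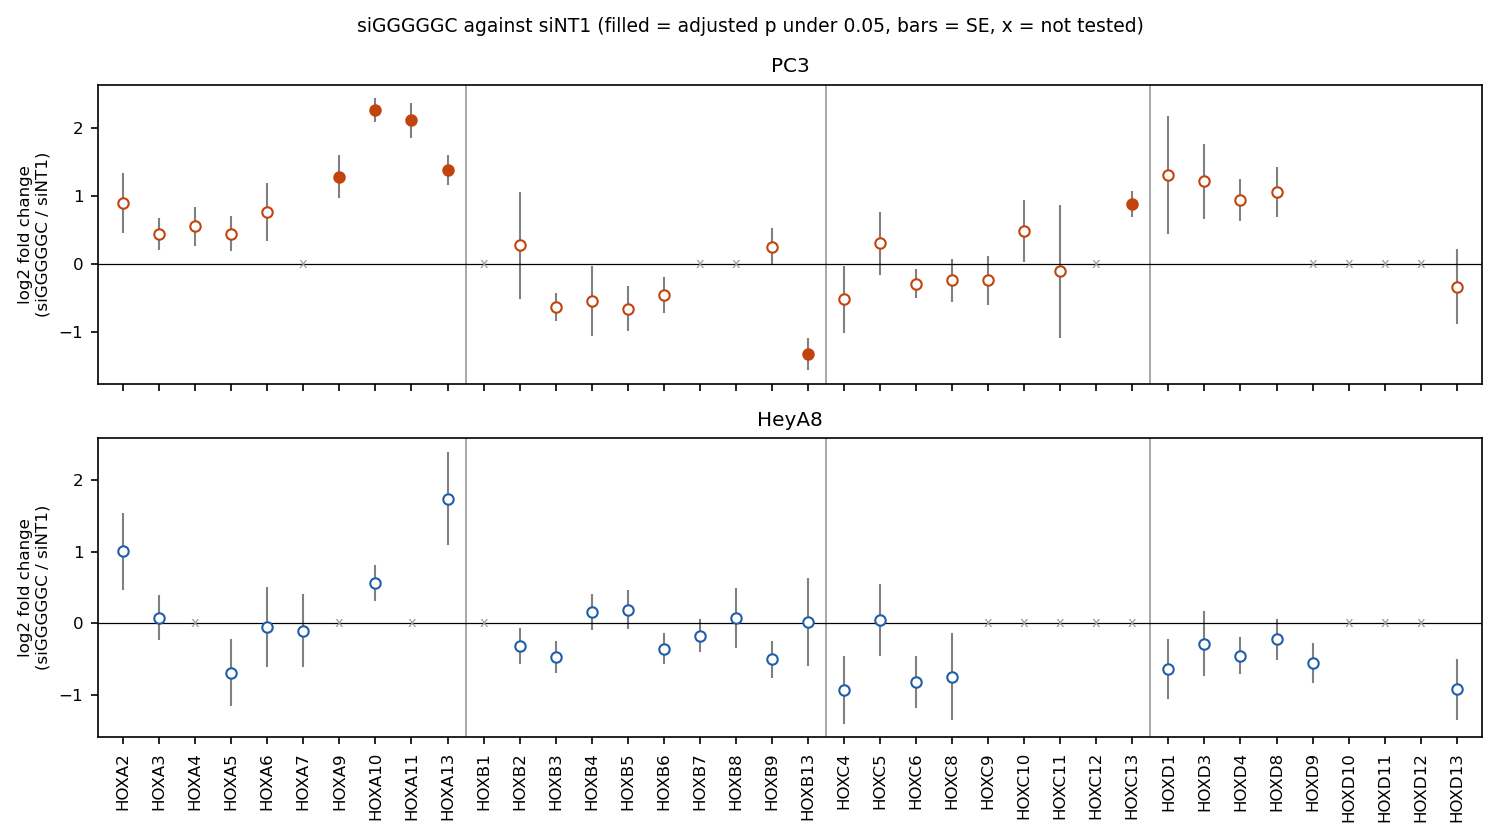
Log2 fold change of siGGGGGC over siNT1 with its SE for HOX genes ordered by cluster and paralogue number, in PC3 (upper) and HeyA8 (lower); filled points have an adjusted p under 0.05 and x marks genes not tested. In PC3 the filled points are HOXA9, HOXA10, HOXA11 and HOXA13 at the right end of the HOXA block, HOXB13 below 0 and HOXC13; HeyA8 has no filled point.

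HOXA10 (chr7:27170605-27180261, minus strand) stood at 17.4 and 18.1 CPM with siNT1 at 24 h and 48 h and at 78.6 and 91.5 CPM with siGGGGGC. The mock libraries were at 20.9 and 19.0 CPM and the siCAG libraries at 12.1 and 11.5 CPM. Both siGGGGGC libraries were thus above all 6 others, and the log2 fold change was 2.26 (SE 0.18, adjusted p 0.00700). HOXA11 (chr7:27181157-27185232) went from 18.2 and 22.2 CPM with siNT1 to 76.3 and 97.8 CPM with siGGGGGC, a log2 fold change of 2.11 (SE 0.26, adjusted p 0.0110). Its mock and siCAG libraries lay between 13.4 and 21.4 CPM.

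HOXA13 (chr7:27193503-27200091) went from 29.9 and 36.1 CPM to 65.0 and 109 CPM, with 48 h the higher. All other PC3 libraries lay between 25.5 and 36.9 CPM. The log2 fold change was 1.38 (SE 0.22, adjusted p 0.0188). HOXA9 (chr7:27162438-27175180) went from 11.5 and 4.32 CPM to 27.3 and 11.2 CPM, so the 48 h library with siGGGGGC was no higher than the 24 h library with siNT1, and the groups overlap without regard to time. Its log2 fold change was 1.28 (SE 0.31, adjusted p 0.0434), 1.24 at 24 h and 1.38 at 48 h.

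HOXC13 (chr12:53938831-53946544, plus strand) went from 7.03 and 8.44 CPM to 13.9 and 14.5 CPM, a log2 fold change of 0.88 (SE 0.19, adjusted p 0.0346). The siCAG library at 48 h was at 13.9 CPM too, so siGGGGGC did not stand apart from all other libraries here. HOXB13 (chr17:48724763-48728750, minus strand) was the abundant member that fell. It stood at 171 and 265 CPM with siNT1, at 93.2 and 75.6 CPM with siGGGGGC, at 199 and 296 CPM with siCAG and at 285 and 465 CPM in mock cells. Its level was lower with siGGGGGC than in every other PC3 library, and the log2 fold change was −1.31 (SE 0.24, adjusted p 0.0233).

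**Figure D3:**
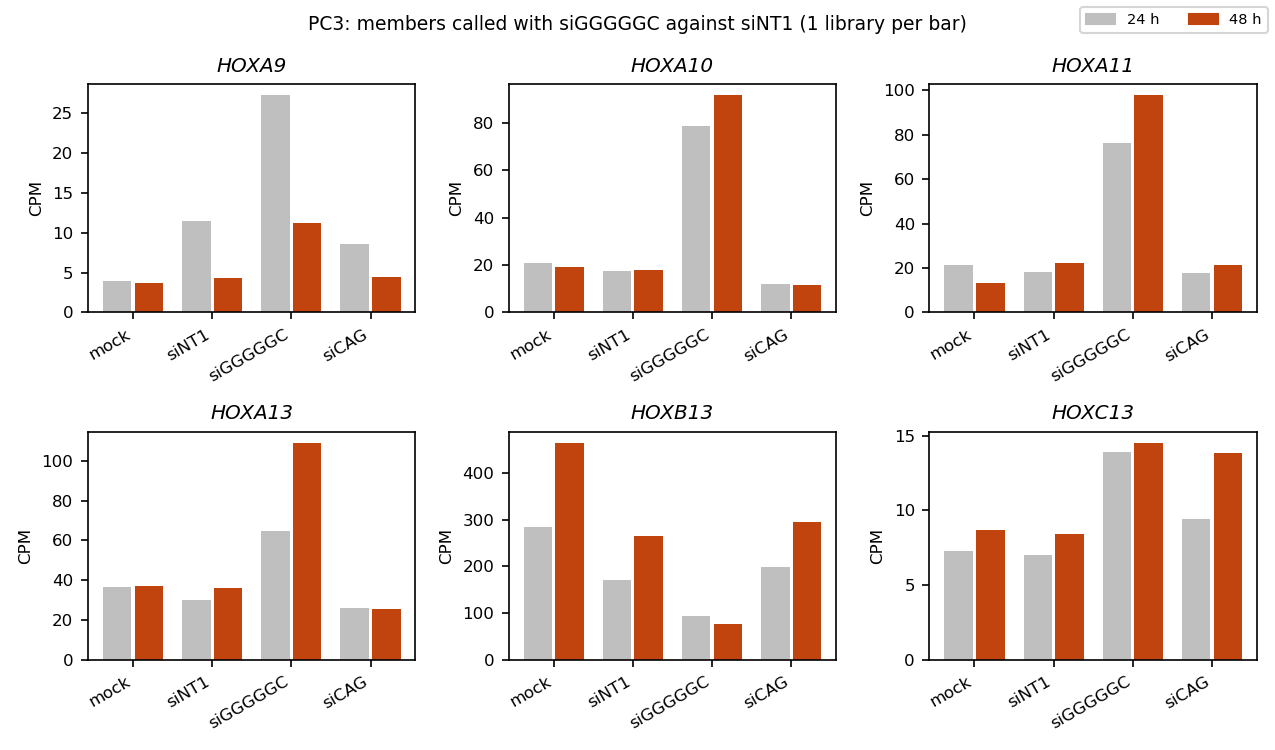
CPM of HOXA9, HOXA10, HOXA11, HOXA13, HOXB13 and HOXC13 in the 8 PC3 libraries, 24 h in grey and 48 h in colour, 1 library per bar. The siGGGGGC bars are the tallest for HOXA10 (78.6 and 91.5 CPM), HOXA11 and HOXA13 and the lowest for HOXB13 (93.2 and 75.6 CPM).

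The sum over the HOXA cluster was 89.7 and 93.5 CPM with siNT1 and 264 and 332 CPM with siGGGGGC, while the HOXB sum was 196 and 286 CPM with siNT1 and 113 and 90.2 CPM with siGGGGGC. With siNT1 HOXB exceeded HOXA at both times, and with siGGGGGC HOXA exceeded HOXB. The sum over all members was 310 and 406 CPM with siNT1 and 409 and 457 CPM with siGGGGGC, and 421 and 591 CPM in mock cells.

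All 10 HOXA members tested in PC3 had a positive log2 fold change with siGGGGGC, of which 4 passed the test, and the median was 0.95. Values of 0.90 (SE 0.44) for HOXA2 and 0.45 (SE 0.23) for HOXA3 did not pass. The 7 HOXB members tested had a median of −0.54, with HOXB3 at −0.63 (SE 0.21, adjusted p 0.0892) and HOXB6 at −0.45 (SE 0.26, adjusted p 0.269). The HOXC median was −0.17 over 8 members and the HOXD median 1.06 over 5, among them HOXD4 at 0.93 (SE 0.31, adjusted p 0.0861) and HOXD8 at 1.06 (SE 0.36, adjusted p 0.0955). Spearman's rho with paralogue number was 0.61 in HOXA, 0.71 in HOXC, −0.39 in HOXB and −0.90 in HOXD, over 10, 8, 7 and 5 genes of the same libraries.

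None of the 6 members called in PC3 had GCCCCC in its longest 3′ UTR. Of the 13 members tested that have a match, such as HOXB3, HOXB6 and HOXC6 whose sites are printed above, 0 were called against siNT1, with a median log2 fold change of −0.24. The 17 members without a match had a median of 0.90. Over all genes tested in PC3 the medians were −0.09 for 4130 genes with a match and 0.04 for 8551 without, and 3.56% of the former rose and 10.2% fell, beside 4.35% and 4.34% of the latter. Matches and clusters were not independent among the members, since HOXA held 1 gene with a match.

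Without the siNT1 library of 24 h or that of 48 h, 0 members and 0 of all genes were called at an adjusted p under 0.05, with 2825 and 2216 genes at an unadjusted p under 0.05. The log2 fold changes of the 6 members kept their direction in these fits, with 2.24 and 2.26 for HOXA10, −1.46 and −1.18 for HOXB13 and 1.65 and 1.00 for HOXA9. Without either siGGGGGC library HOXA9 lost its call, and without that of 48 h HOXC13 did too. Each of these fits rests on a lone siGGGGGC library. Calls over all genes rose without that of 24 h and fell without that of 48 h. The members called in these fits are therefore not counted. Against mock in place of siNT1 10 members were called, the same 6 and others that include HOXD3 and, of the members with a GCCCCC match, HOXB9 and HOXD4, both higher than in mock cells. Calls over all 15136 genes rose too, to 1337 higher and 1863 lower, from 555 and 908 against siNT1. DESeq2 called the same 6, and it called more of the 15136 genes than the main fit, 1156 higher and 1703 lower.

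Of the genes around the members, 4 of 15 tested antisense and other noncoding transcripts of the clusters rose in PC3 with siGGGGGC and 0 fell, beside 3.67% and 6.00% of all genes. HOXA11-AS stood at 8.80 and 11.4 CPM with siNT1 and at 18.6 and 53.8 CPM with siGGGGGC (log2 fold change 1.73, SE 0.35), and HOXA10-AS, HOXA-AS2 and HOXC13-AS rose by 0.93, 1.98 and 1.26. HOXA10-AS and HOXC13-AS overlap HOXA10 and HOXC13 on the opposite strand, and the part of shared reads in either result was not tested. Of 22 tested genes flanking the clusters 0 were called, with a median of 0.0070.

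In lists of 4 to 26 tested genes, shares of 3.67% and 6.00% amount to few calls, and the calls that follow are given as descriptions. Among 26 Polycomb genes 3 rose and 0 fell in PC3 with siGGGGGC, among them CBX7 and CBX8, which encode readers of the repressive histone mark. CBX7 stood at 8.43 and 10.1 CPM with siNT1 and at 18.9 and 24.6 CPM with siGGGGGC (log2 fold change 1.22, SE 0.19), and CBX8 rose by 0.73. Among 13 activators 2 fell, DOT1L by 1.12 (SE 0.19) and MEN1 by 0.74 (SE 0.15) on the log2 scale. DOT1L methylates histone H3 on active genes, and MEN1 encodes menin, a partner of MLL. None of 8 tested TALE cofactors was called, and CYP26B1, an enzyme that breaks down retinoic acid, rose by 1.49 (SE 0.29) as the 1 call among 8 retinoic acid and CDX genes. Of 6 tested prostate luminal markers 2 fell together with HOXB13, TMPRSS2 by 0.85 and SLC45A3 by 1.5 on the log2 scale, and their part in the result for HOXB13 was not tested. PAX8, from the ovarian and Müllerian list, fell as well, by 1.36 (SE 0.33), as the 1 call among 4 tested genes of that list.

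In HeyA8, siGGGGGC gave no call. Of 27 members tested 0 passed, and 0% of all 13872 genes did, with 1352 genes and 1 member, HOXA13, at an unadjusted p under 0.05. DESeq2 called 318 genes and 0 members. A fit of the 4 siGGGGGC and siNT1 libraries alone called 411 of 13312 genes higher, 769 lower and 0 members. HOXA10 stood at 15.7 and 12.3 CPM with siNT1 and at 21.3 and 20.8 CPM with siGGGGGC, a log2 fold change of 0.56 (SE 0.25, adjusted p 0.521). The siGGGGGC libraries were above the other 6 HeyA8 libraries, but the difference did not pass the test. HOXB2 stood at 101 and 79.6 CPM with siNT1 and at 64.7 and 82.1 CPM with siGGGGGC, where the groups overlapped.

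The other abundant HeyA8 members had log2 fold changes between −0.50 (SE 0.26) for HOXB9 and 0.19 (SE 0.27) for HOXB5, none of which passed. HOXB3, HOXB6 and HOXD4, which carry a GCCCCC match, had −0.47 (SE 0.22), −0.35 (SE 0.22) and −0.45 (SE 0.26), and HOXB4, which carries 2, had 0.16 (SE 0.24). The median was −0.47 over the 13 tested members with a match and −0.12 over the 14 without, beside −0.10 and 0.05 over 3805 and 7990 genes of the whole table. HOXD9, whose site is printed above, stood at 6.63 and 5.24 CPM with siNT1, at 3.89 and 4.31 CPM with siGGGGGC and at 4.86 and 4.16 CPM in mock cells. Its siGGGGGC libraries were below both siNT1 libraries and overlapped with mock, and the log2 fold change was −0.55 (SE 0.28, adjusted p 0.589). HOXA13 had a log2 fold change of 1.74 (SE 0.65) at levels of 0.531 and 1.01 CPM.

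**Figure D4:**
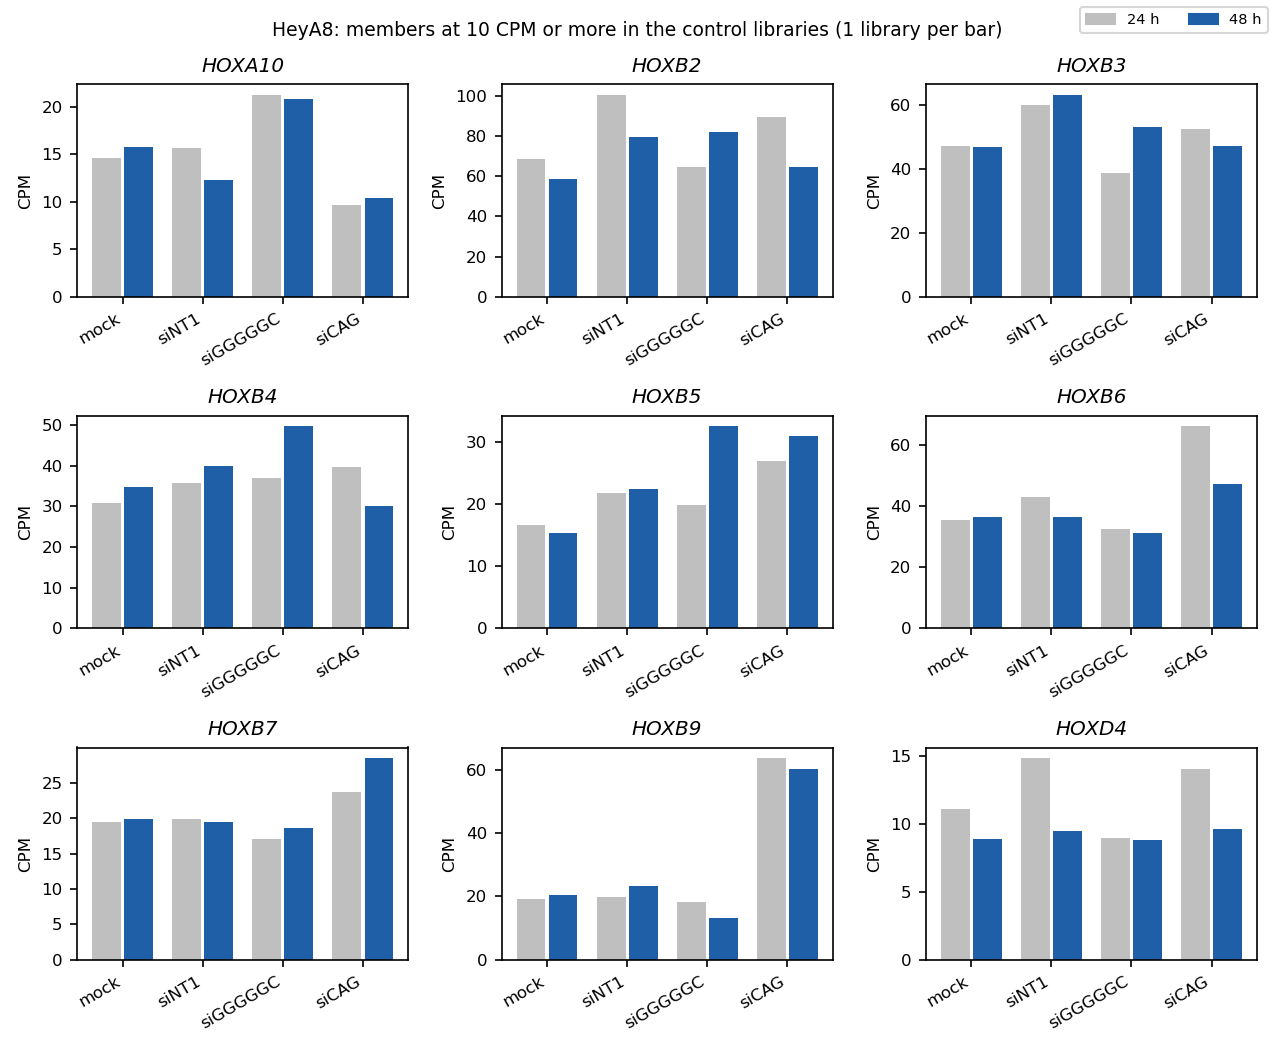
CPM of the 9 members with a control mean of 10 CPM or more in HeyA8, by siRNA, 24 h in grey and 48 h in colour, 1 library per bar. HOXB9 with siCAG (64.0 and 60.5 CPM) is above the other 6 libraries; HOXA10 with siGGGGGC reaches 21.3 and 20.8 CPM.

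Whether the lines differed in their response was tested as an interaction over the 16 libraries. For siGGGGGC 0 of 34 members and 0% of 15887 genes were called, although 5 members had an unadjusted p under 0.05 (HOXA4, HOXA10, HOXB7, HOXD4 and HOXD8), as had 1054 genes. The effect on HOXA10 was larger in PC3 by 1.69 (SE 0.29, adjusted p 0.639), and DESeq2 called this difference. HOXD4 differed by 1.38 (SE 0.37) and HOXB13 by −1.36 (SE 0.63). The 34 include HOXA11 and HOXC13, which had 0 counts in the 8 HeyA8 libraries, so that their response there could not be estimated and their place in the count carries no information. HOXA4 had 21 counts in the HeyA8 libraries together and HOXB7 26 in those of PC3. For siCAG 0 of 34 members were called beside 0.636% of all genes. An unadjusted p under 0.05 was found for 2 members, beside 2327 of all 15887 genes tested.

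siCAG gave 0 calls among 30 members in PC3, where 1.20% of all genes were called. An unadjusted p under 0.05 was found for 2 members, HOXA10 and HOXC13, beside 2037 of all 15136 genes tested. HOXA10 stood at 12.1 and 11.5 CPM with siCAG, below the other 6 PC3 libraries, with a log2 fold change of −0.61 (SE 0.17, adjusted p 0.187). HOXC13 had 0.56 (SE 0.19, adjusted p 0.273). HOXB13, HOXA11 and HOXA13 had 0.17 (SE 0.23), −0.06 (SE 0.26) and −0.36 (SE 0.22). DESeq2 gave 0 members as well.

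In HeyA8, siCAG raised 1 of 27 members, HOXB9, beside 2.88% of all genes that rose and 4.93% that fell. HOXB9 (chr17:48621156-48626358, minus strand) stood at 19.9 and 23.4 CPM with siNT1, at 19.1 and 20.5 CPM in mock cells, at 18.2 and 13.1 CPM with siGGGGGC and at 64.0 and 60.5 CPM with siCAG. The siCAG libraries did not overlap with any other, and the log2 fold change was 1.40 (SE 0.26, adjusted p 0.0311). The call was lost without either siNT1 library, where a lone siNT1 library remained and calls over all genes fell steeply as well. It was lost too when the 4 libraries of the comparison were fitted alone, beside 148 of 13466 genes higher and 432 lower. HOXB8, its neighbour, stood at 0.798 and 0.963 CPM with siNT1 and at 2.31 and 3.02 CPM with siCAG, a log2 fold change of 1.47 (SE 0.41, adjusted p 0.0715), and HOXB6 had 0.37 (SE 0.22).

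HOXA10 in HeyA8 stood at 9.63 and 10.4 CPM with siCAG, below the other 6 libraries, with a log2 fold change of −0.60 (SE 0.25, adjusted p 0.163). HOXB2, HOXB3, HOXB4, HOXB5, HOXB7 and HOXD4 had −0.36, −0.44, −0.24, 0.26, 0.28 and −0.17, none of which passed. The siCAG and siGGGGGC comparisons share the siNT1 libraries, so their values are not independent. HOXB-AS3, the antisense transcript that overlaps HOXB5 and HOXB6, rose by 1.78 (SE 0.33) with siCAG as the 1 call among 7 transcripts of this kind. Among 26 Polycomb genes 2 rose and 5 fell, beside 2.88% and 4.93% of all genes. EZH2 fell by 2.33 (SE 0.43) and the activator PSIP1 fell by 1.83 (SE 0.24) on the log2 scale.

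Transfection itself was checked by siNT1 against mock. In PC3 1 of 30 members, HOXB9, was higher with siNT1, beside 0.205% of all genes that were higher and 0.0264% that were lower. HOXB9 stood at 0.556 and 0.502 CPM in mock cells, 2.21 and 2.97 with siNT1, 2.91 and 3.24 with siGGGGGC and 2.49 and 3.97 with siCAG. All 6 transfected libraries were above both mock libraries, and the log2 difference was 2.28 (SE 0.32, adjusted p 0.0459). The call was lost without any of the 4 libraries, and the calls over all genes were lost with it. Each of those fits rests on a lone library of a condition, so the loss says little about HOXB9 itself. It was lost without the term for time too, where 6 of 15136 genes were called higher and 0 lower. HOXB13 had −0.77 (SE 0.23, adjusted p 0.339), both siNT1 libraries being below both mock libraries. In HeyA8 0 of 27 members and 0% of all genes were called, with 177 genes and 0 members at an unadjusted p under 0.05 and 0 members by DESeq2.

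Between 24 h and 48 h, 0 of 30 members changed in PC3, where 0.0264% of all genes did. An unadjusted p under 0.05 was found for 4 members, beside 2032 of all 15136 genes tested. HOXA9 had the largest difference among these members, −0.96 (SE 0.23, adjusted p 0.276), and DESeq2 called it. It stood at 11.5 and 4.32 CPM with siNT1, 27.3 and 11.2 with siGGGGGC, 8.57 and 4.50 with siCAG and 3.92 and 3.66 in mock cells, lower at 48 h in each condition. HOXB13 had 0.40 (SE 0.17, adjusted p 0.365) and was higher at 48 h in 3 of the 4 conditions. In HeyA8 0 of 27 members and 0% of all genes were called, with 1 member, HOXC5, and 879 genes at an unadjusted p under 0.05, and 0 members by DESeq2.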

How the data were processed

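The deposited count table holds raw counts of reads per gene for 16 libraries, which the authors made from total RNA libraries. According to the submitters' processing notes STAR, HTSeq and hg38 were used. The strand setting of the counting was not given in the sources used here. The start, end and length columns come with the deposited table, and its length exceeds the gene's span for 1027 rows, so levels per length were computed with the canonical transcripts of GENCODE v44 (39 of 39 members matched by symbol). No column belonged to no sample and no row lacked a gene name.

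Counts were analysed with edgeR 4.0.16 in R 4.3.3. Genes were kept by filterByExpr, scaled by TMM, and fitted with glmQLFit and glmQLFTest, with siRNA and time as terms within a line (all 8 libraries), line, siRNA and time for the control libraries, and group with a time term per line for the interaction. Calls needed an adjusted p (Benjamini-Hochberg, over all genes tested) below 0.05. Standard errors are the log2 fold change divided by the square root of F. Where 1 group has few counts they can be smaller than the counting error, so none is given for HOXB7 between the lines. DESeq2 1.42.0, RLE scaling, other filters, mock as control, fits without time and without single libraries were alternatives. The scripts were tested on simulated data.

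Members and lists were chosen with earlier results of these data known. Members were named by cluster in the line comparison, in full from a mean of 10 CPM in 1 line, and elsewhere if called or at 10 CPM or more. Other members were named after their values were seen, such as HOXC13 between the lines and HOXA2, HOXA3, HOXB8, HOXD8 and HOXD9 with the siRNAs. Folds against a group at 0 use a floor of 3 counts over 4 libraries, and counting intervals are exact at 95% and cover counting error only. Values of some genes are not reported here and are left out of the plots.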

Additional observations from a re-analysis of the deposited data

Results flagged for a closer look

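In 13 sets of 4 control libraries, 1 for each line and member averaging 10 CPM or more, the highest and lowest libraries were compared with the rest, and 2 sets had a library far from the other 3. HOXA13 in PC3 stood at 29.9 CPM with siNT1 at 24 h and at 36.1 to 36.9 CPM in the other control libraries. HOXB6 in HeyA8 stood at 42.9 CPM with siNT1 at 24 h and at 35.4 to 36.6 CPM in the others. Chance alone marks about 1 set in 20.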

How the results depend on the processing

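In the comparison of the lines 28 to 34 members were called over all alternatives, and those called between the lines kept their direction. Of the members called in PC3 with siGGGGGC, HOXA9 and HOXC13 were lost without the term for time (4 called) and HOXC13 when the 4 libraries were fitted alone (5 called). These fits called 177 of 15136 genes higher and 448 lower, and 75 of 14648 higher and 363 lower. Against mock 10 members were called, beside 1337 of 15136 genes higher and 1863 lower. Without either siNT1 library all 6 calls were lost. With siCAG in PC3, 1 member was called against mock (HOXB9), beside 125 of 15136 genes higher and 266 lower. With the 4 libraries alone 2 were called (HOXA10 and HOXC13), beside 722 of 14669 genes higher and 1624 lower. For siNT1 against mock in PC3, 0 members were called without the term for time, beside 6 of 15136 genes higher and 0 lower. The 4 libraries alone called 2 (HOXB9 and HOXB13), beside 156 of 14598 genes higher and 97 lower. Leaving out any single library ended the HOXB9 call and the other calls over all genes with it. For siCAG in HeyA8, DESeq2 called 2 members (HOXB8 and HOXB9), beside 1152 of 13872 genes higher and 1513 lower. The 4 libraries alone called 0 members, beside 148 of 13466 genes higher and 432 lower. HOXB9 lost its call without either siNT1 library, where calls over all genes fell steeply as well. For siNT1 against mock in HeyA8 the 4 libraries alone gave 3 (HOXB2, HOXB3 and HOXB5), beside 903 of 13298 genes higher and 671 lower. DESeq2 called 1 member (HOXA9) between the times in PC3, beside 98 of 15136 genes higher and 121 lower. In the siGGGGGC interaction it called 1 (HOXA10), beside 7 of 15887 genes higher and 12 lower. Between the times in HeyA8 the control libraries alone gave 2 (HOXB2 and HOXD4), beside 692 of 13298 genes higher and 899 lower. The causes were not tested. No called member reversed its direction. Where a library was left out, the lone library of its condition was assumed to vary like the others. The labels carry no replicate numbers, and the term for time already pairs the 24 h and the 48 h libraries across conditions, so the fits without it are the unpaired ones. Of the members not called, 8 of 24 with siGGGGGC in PC3 and 13 of 27 in HeyA8 changed sign in at least 1 alternative. At these depths a member under about 0.1 CPM rests on 3 or fewer counts per library.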

Other observations

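HOXA4, which had 324 counts in the PC3 controls, had 0, 0, 1 and 0 counts in the HeyA8 controls (mock 24 h, mock 48 h, siNT1 24 h and siNT1 48 h), 5 and 12 counts with siGGGGGC at 24 h and 48 h and 1 and 2 counts with siCAG. It did not pass the filter on low counts in the HeyA8 comparisons, so the difference was not tested within that line, and it was chosen after its values were seen.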
